A study of Heterocephalus glaber with 2 samples.

Results

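The small leucine-rich proteoglycans (SLRPs) examined here are the genes *Dcn*, *Bgn*, *Lum*, *Fmod*, *Ogn*, *Omd*, *Prelp*, *Aspn*, *Podn* and *Kera*, chosen by gene symbol. All 10 were found, each as a single entry, among the 37520 genes listed in the deposited data. The libraries were made from primary adult skin fibroblasts (NSFs) of the naked mole-rat (NMR; *Heterocephalus glaber*) and compare 1 *shβ-catenin* library with 1 shControl library. The *shβ-catenin* cells carried a lentiviral hairpin (#1) against *β-catenin*, and the shControl cells carried the empty vector. Both were selected with puromycin, then replated and grown until nearly confluent. NMR fibroblasts of the study were kept under hypoxic conditions. The empty vector expresses no hairpin, so in these libraries effects of hairpin expression itself and of *β-catenin* knockdown cannot be told apart, nor can hairpins be compared. The study reports that a non-target hairpin left β-catenin, senescence staining, oxidative DNA damage and lipid droplets unchanged, but that hairpin was not among the sequenced libraries. Values are FPKM, that is, fragments scaled by exon length and by the mapped total of the library. Each condition has 1 library, so differences have neither a replicate error nor a test, and the depth is unknown.

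SLRPs are secreted proteins with a short protein core built of leucine-rich repeats. Many of them bind collagen fibrils in connective tissue, where they limit fibril thickness and spacing, and several also bind growth factors or cell surface receptors. Many carry glycosaminoglycan (GAG) chains, which are chondroitin or dermatan sulfate on class I members and keratan sulfate on class II members. Decorin is known as the characteristic proteoglycan of the mammalian dermis, and lumican is also found there.

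In these fibroblasts the family was almost entirely *Bgn*, and the members went in opposite directions after *β-catenin* knockdown. The members with the highest levels, *Bgn* (biglycan) and, far below it, *Podn* (podocan), were both lower in the *shβ-catenin* library. The scarce neighbors *Dcn* (decorin) and *Lum* (lumican) were both higher. Of the 10 members, 6 were above 0 in both libraries, with 3 higher and 3 lower after the knockdown, and the other 4 were listed at 0 in both.

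**Figure D1:**
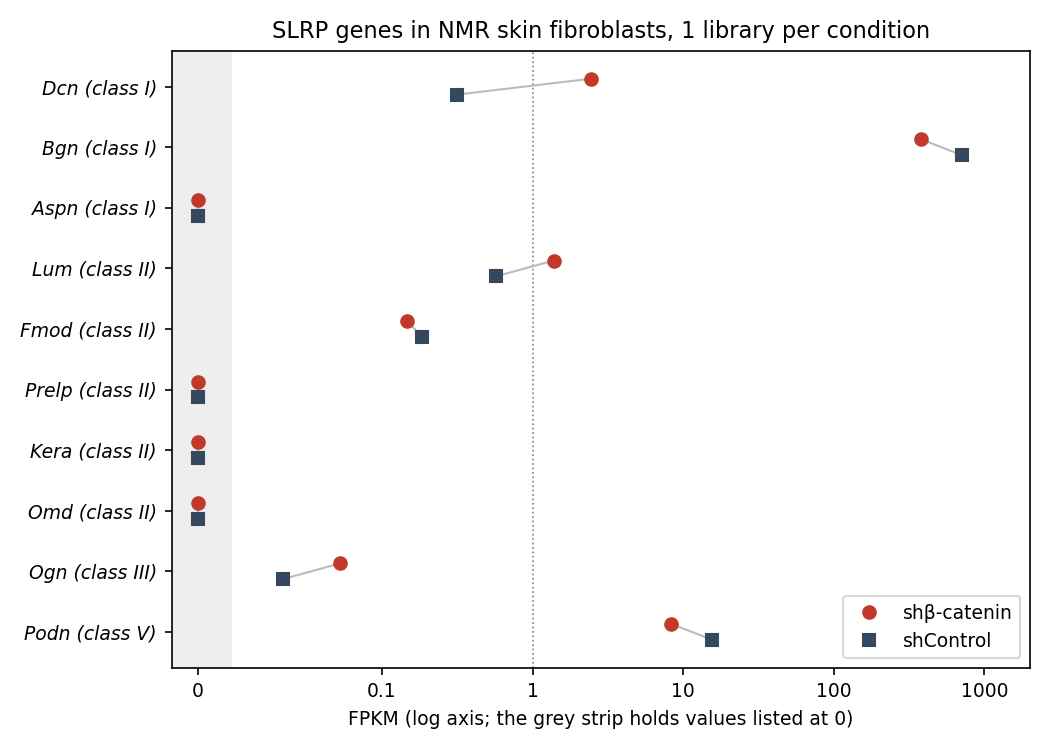
FPKM of each SLRP gene (log axis) in the *shβ-catenin* library (circles) and the shControl library (squares), 1 library each, with genes at 0 in the grey strip and a dotted line at 1 FPKM. *Bgn* lies at 381 FPKM in *shβ-catenin* and 706 FPKM in shControl cells, *Dcn* and *Lum* cross 1 FPKM only in *shβ-catenin* cells, and 4 genes lie at 0.

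The targeted gene *Ctnnb1*, which encodes β-catenin, was listed at 69.0 FPKM in the *shβ-catenin* library and 530 FPKM in the shControl library, a 7.69-fold lower value. The libraries had FPKM sums of 591905 in *shβ-catenin* and 609786 in shControl cells, with 20648 and 20198 genes above 0. Log2 fold changes set *shβ-catenin* over shControl after 0.1 FPKM was added to both values as a pseudocount, which understates the change of low genes. Plain folds are ratios of FPKM without the pseudocount. Genes were counted where the mean of both libraries reached 1 FPKM, which left 13097 genes with a median of −0.01. Above 2-fold, 3.27% of these genes were higher after the knockdown and 2.05% were lower. Above 4-fold, 0.68% were higher and 0.206% lower.

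Among the members of class I, *Bgn* had by far the highest level. Biglycan is a relative of decorin that binds collagen and, once released from the matrix, stimulates Toll-like receptors. *Bgn* was listed at 381 FPKM in *shβ-catenin* cells and 706 FPKM in shControl cells, a 1.85-fold lower value and a log2 fold change of −0.89. It ranked 208th of all genes by level in the *shβ-catenin* library and 142nd in the shControl library. It made up 96.9% of the summed FPKM of the 10 members in *shβ-catenin* and 97.7% in shControl cells. The summed level of the family therefore followed *Bgn*, at 393 FPKM in *shβ-catenin* and 723 FPKM in shControl cells. Without *Bgn* the other 9 genes summed to 12.3 FPKM in *shβ-catenin* and 16.7 FPKM in shControl cells. *Bgn* did not pass 2-fold. Of the 875 genes that averaged 100 FPKM or more, 1.83% were lower by as much as *Bgn* or more. In bulk RNA, fewer cells that express a gene and less of its RNA per cell cannot be told apart.

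*Dcn* had the largest fold change of the 6 members above 0. Decorin binds collagen fibrils, sequesters transforming growth factor β and restrains the receptors EGFR and MET. *Dcn* was listed at 2.42 FPKM in *shβ-catenin* cells and 0.316 FPKM in shControl cells, a 7.67-fold higher value and a log2 fold change of 2.60. On the plain scale this is a difference of 2.11 FPKM, far smaller in size than that of *Bgn* (−325 FPKM). *Dcn* passed the filter only through the *shβ-catenin* library, so it had to differ to be counted. Of the 1480 genes with a mean of 1 to 2 FPKM, 2.64% were more than 4-fold higher, and 1.35% were as far higher as *Dcn* or more. *Dcn* also stands in the study's own table of higher genes, drawn from these same libraries, so its direction is not independent evidence. With a pseudocount of 1 FPKM its log2 fold change was 1.38.

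The ratio between the pair of closest relatives shifted accordingly. There were 157 FPKM of *Bgn* for each FPKM of *Dcn* in the *shβ-catenin* library and 2235 in the shControl library. *Aspn*, the remaining member of class I, encodes asporin, an inhibitor of transforming growth factor β known from cartilage and periodontal ligament, and was listed at 0 in both libraries.

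**Figure D2:**
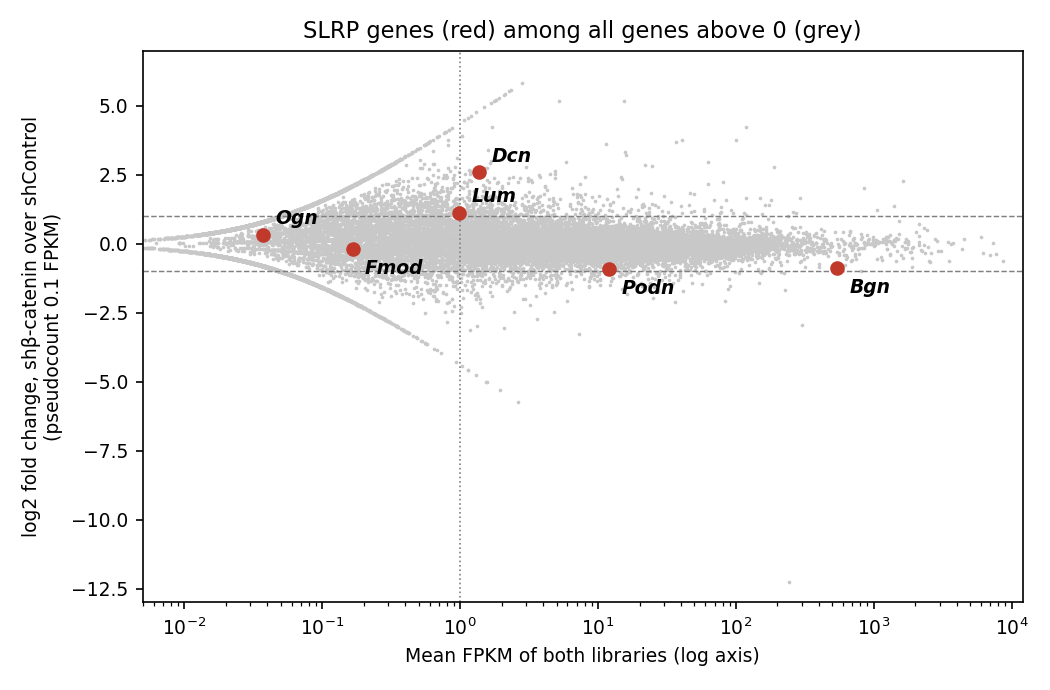
Mean FPKM of both libraries (log axis) against the log2 fold change of *shβ-catenin* over shControl (pseudocount 0.1 FPKM) for the 22124 genes above 0 in a library, with the 6 SLRP genes above 0 in red. Dashed lines mark 2-fold and the dotted line a mean of 1 FPKM, and grey genes spread more widely at low levels, where *Dcn* (2.60), *Lum* (1.14), *Fmod* (−0.20) and *Ogn* (0.32) lie, than at the levels of *Podn* and *Bgn*.

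Class II holds the keratan sulfate proteoglycans of cornea, cartilage, tendon and bone. Of its 5 members here, *Lum* had the highest level. Lumican binds collagen and is needed for the regular fibrils of a clear cornea. *Lum* was listed at 1.38 FPKM in *shβ-catenin* cells and 0.574 FPKM in shControl cells, a 2.40-fold higher value and a log2 fold change of 1.14. Its mean of 0.976 FPKM lies just under the filter of 1 FPKM, so it is not counted among the members that passed. At means of 0.5 to 1 FPKM, 17.6% of 1387 genes were more than 2-fold higher, and 14.7% were as far higher as *Lum* or more. Differences as large as that of *Lum* were thus frequent at its level.

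The precision of such low values can be judged from their ratios. Where whole fragments were counted, the ratio of the FPKM of a low gene is a ratio of whole numbers times the relative depth of the libraries, which was 1.202 here. The smallest whole numbers that give the ratio of *Lum* are 2 fragments in *shβ-catenin* cells and 1 in shControl cells. Multiples give the same ratio, so these are lower limits. For these 2 numbers the 95% interval of the ratio (exact, Clopper-Pearson) ran from 0.125 to 142, which includes 1. The smallest multiple whose interval lies above 1 is 18 and 9 fragments (1.03 to 6.08). These intervals cover counting error only, and the multiple counted was not determined, since the depth is unknown. Other genes were listed far lower in shControl cells (*Ogn* at 0.0218 FPKM). The numbers behind *Lum* may thus lie well above the lower limits, with a narrower interval than the one for 2 and 1 fragments.

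*Fmod* encodes fibromodulin, a tendon and cartilage proteoglycan that binds collagen and modulates its cross-linking by lysyl oxidase. It was listed at 0.147 FPKM in *shβ-catenin* cells and 0.184 FPKM in shControl cells, a log2 fold change of −0.20. The smallest whole numbers that give its ratio are 2 fragments in *shβ-catenin* and 3 in shControl cells, again lower limits. At these numbers the interval of the FPKM ratio ran from 0.0670 to 6.998, and it would be narrower at a multiple of them. *Prelp*, which anchors basement membranes to collagen, *Kera* (keratocan of the cornea) and *Omd* (osteomodulin of bone) were listed at 0 in both libraries. A listed 0 does not show absence, since *Ywhaz*, a gene that nearly all cells use, was also listed at 0 in both.

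*Ogn*, the class III member, encodes osteoglycin (mimecan), a small proteoglycan of bone, cornea and vessel walls. It was listed at 0.0525 FPKM in *shβ-catenin* cells and 0.0218 FPKM in shControl cells. Its plain ratio of 2.41 rests on the lowest values of the 6 members above 0, and its log2 fold change was 0.32 with the pseudocount of 0.1 and 0.97 with 0.01.

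*Podn*, the class V member, ranked next to *Bgn* in level among the 10 members. Podocan was found in kidney podocytes and restrains the growth of vascular smooth muscle cells in mice. *Podn* was listed at 8.33 FPKM in *shβ-catenin* cells and 15.6 FPKM in shControl cells, a 1.88-fold lower value and a log2 fold change of −0.90. Of the 7437 genes with a mean of 5 to 50 FPKM, 1.87% were lower by as much or more. Because *Bgn* and *Podn* were lower by nearly the same fold, the ratio of *Bgn* to *Podn* was 45.8 in *shβ-catenin* and 45.2 in shControl cells, although their levels differ widely.

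Of the 10 members, 3 passed the filter on low values (*Dcn*, *Bgn* and *Podn*) and 7 did not. Of these 3, 1 was more than 2-fold higher (*Dcn*, also past 4-fold), where 3.27% of all genes tested were. None was more than 2-fold lower, where 2.05% were, and the median log2 fold change of the 3 was −0.89, against −0.01 over all genes tested. Since *Dcn* passed through a single library and so few members passed, this median and these counts describe the 3 genes and not the family. Without the filter the median of the 6 members above 0 was 0.063, and 2 of them (*Dcn* and *Lum*) were more than 2-fold higher, where 9.1% of all 22124 genes above 0 in a library were.

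Of the 8 SLRP family genes outside the 10, 7 were under 1 FPKM in both libraries, so no common direction could be read. *Tsku* (tsukushi, a secreted protein that binds bone morphogenetic proteins and Frizzled) was the only one of these 8 to reach a mean of 1 FPKM, at 22.2 FPKM in *shβ-catenin* and 18.99 FPKM in shControl cells. It thus stood above *Podn* in both libraries. *Podnl1*, the closest relative of *Podn*, was listed at 0.406 FPKM in *shβ-catenin* and 0.862 FPKM in shControl cells, a 2.13-fold lower value under the filter. *Ecm2*, a matrix gene of class I, was listed at 0.244 FPKM in *shβ-catenin* and 0.203 FPKM in shControl cells. *Chadl*, a chondroadherin-like gene of cartilage, was listed at 0.0474 FPKM in *shβ-catenin* and 0.183 FPKM in shControl cells. *Nyx*, which encodes nyctalopin of the retina, was listed at 0.0770 FPKM in *shβ-catenin* and 0.0214 FPKM in shControl cells. *Chad* (chondroadherin of cartilage) was listed at 0 in *shβ-catenin* and 0.0528 FPKM in shControl cells. *Epyc* (epiphycan of growth plate cartilage) and *Optc* (opticin of the vitreous) were at 0 in both.

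Many SLRP genes lie side by side in mammalian genomes. In the RefSeq annotation of H.glaber_assembly_v1.0, which was used for gene order only since the values come from another assembly, the family forms 3 blocks of adjacent protein-coding genes. The blocks are *Epyc*, *Kera*, *Lum* and *Dcn*, then *Ogn*, *Omd*, *Aspn* and *Ecm2*, and then *Fmod*, *Prelp* and *Optc*. All members of these blocks were under 1 FPKM in the shControl library. In the *shβ-catenin* library only *Dcn* and *Lum*, which are neighbors, were above 1 FPKM. *Bgn* and *Podn*, the members with the highest levels, each stand apart from the other SLRP genes.

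**Figure D3:**
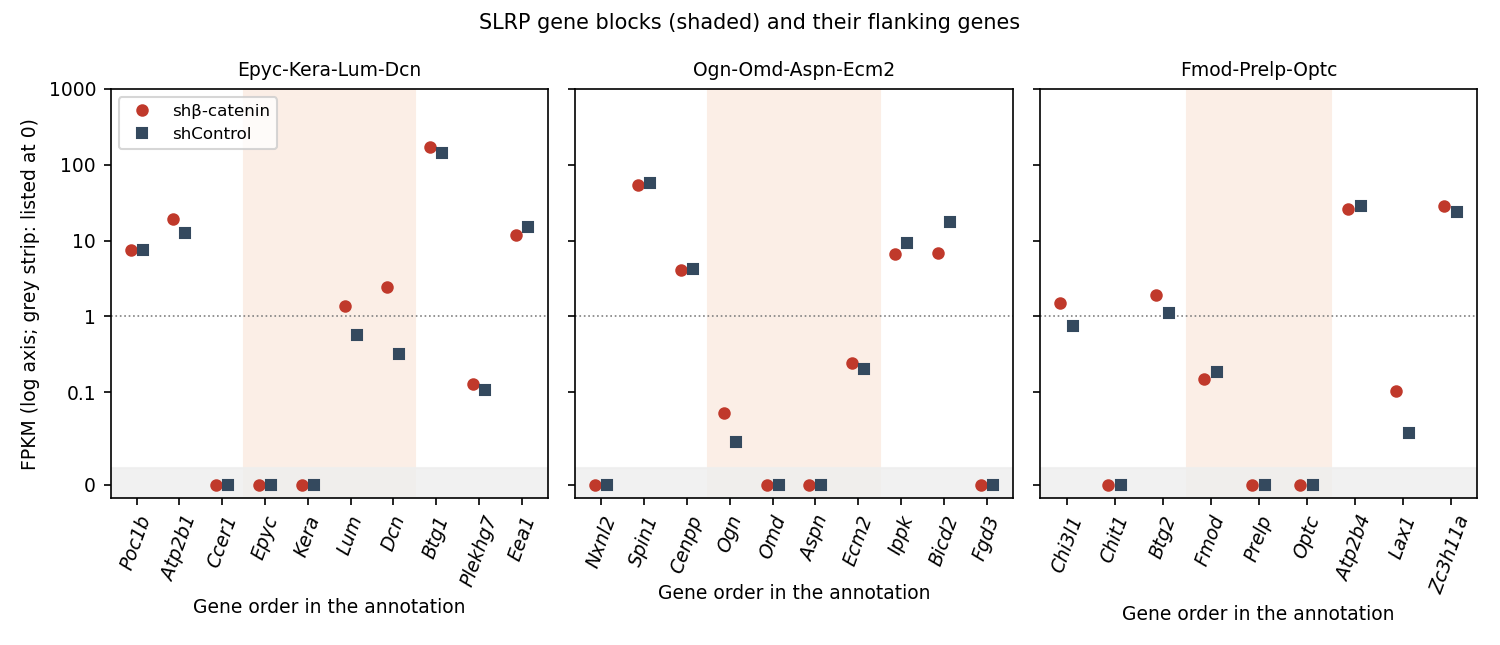
FPKM (log axis) of the genes of each SLRP block (shaded) and the 3 nearest named protein-coding genes on either side, in annotation order, in *shβ-catenin* (circles, left of each pair) and shControl (squares) cells, with genes at 0 in the grey strip. In the shControl library all shaded genes lie under 1 FPKM, while the flanking gene *Btg1* lies above 100 FPKM in both libraries and *Spin1*, the next highest, at 54.6 FPKM in *shβ-catenin* and 57.95 FPKM in shControl cells.

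Genes that flank these blocks were often well expressed. Of 18 flanking genes that carry a proper symbol, 11 had at least 1 FPKM in both libraries, and 1 differed by more than 2-fold. Over all genes tested, 3.27% were more than 2-fold higher and 2.05% lower, so a count this low is common. *Btg1*, an antiproliferative gene next to *Dcn*, was listed at 174 FPKM in *shβ-catenin* and 143 FPKM in shControl cells, a log2 fold change of 0.28 against 2.60 for *Dcn*. *Atp2b1*, a calcium pump gene on the other side of the block, was listed at 19.3 FPKM in *shβ-catenin* and 12.5 FPKM in shControl cells. The flanking gene past 2-fold was *Bicd2*, a dynein adaptor near *Ecm2*, at 6.92 FPKM in *shβ-catenin* and 17.8 FPKM in shControl cells. None of the flanking genes of the block of *Dcn* and *Lum* differed by more than 2-fold, which so few genes would mostly show at these shares. Among them *Ccer1* was listed at 0 in both libraries, and *Plekhg7* at 0.129 FPKM in *shβ-catenin* and 0.107 FPKM in shControl cells.

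Genes that build the GAG chains of SLRPs were mostly even between the libraries. Of 9 genes for the linkage region and its sugar precursors, all 9 passed the filter. There were 5 higher and 4 lower, none past 2-fold, and their median was 0.03. *B3gat3*, which adds the glucuronic acid that completes the linkage, was listed at 57.1 FPKM in *shβ-catenin* and 55.4 FPKM in shControl cells. *Ugdh*, the source of UDP-glucuronic acid, was listed at 27.5 FPKM in *shβ-catenin* and 29.2 FPKM in shControl cells. *Xylt1*, a xylosyltransferase that starts the chain, was listed at 13.05 FPKM in *shβ-catenin* and 12.3 FPKM in shControl cells.

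Among chondroitin and dermatan sulfate genes, 19 of 21 passed the filter. Their median was 0.00025, with 10 higher and 9 lower. The gene past 2-fold was *Csgalnact1*, which starts chondroitin chains, at 1.04 FPKM in *shβ-catenin* and 2.48 FPKM in shControl cells (log2 fold change −1.17). *Dse*, the epimerase that turns chondroitin into dermatan sulfate, was listed at 19.6 FPKM in *shβ-catenin* and 22.3 FPKM in shControl cells. *Papss2*, which makes the sulfate donor, was listed at 66.1 FPKM in *shβ-catenin* and 77.9 FPKM in shControl cells, and *Chpf*, a chondroitin polymerizing factor, at 63.5 FPKM in *shβ-catenin* and 52.3 FPKM in shControl cells. Of the keratan sulfate genes, 8 of 11 measured passed, 3 higher and 5 lower, none past 2-fold, with a median of −0.27. The most abundant were *St3gal1*, a sialyltransferase, at 36.6 FPKM in *shβ-catenin* and 56.9 FPKM in shControl cells, and *Chst2*, a sulfotransferase, at 26.1 FPKM in *shβ-catenin* and 36.1 FPKM in shControl cells.

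The collagens that SLRPs bind were abundant, and several were lower beside *Bgn*. Of 16 genes for fibrillar and associated collagens, their cross-linking enzymes and tenascin X, 15 passed, 5 higher and 10 lower, with a median of −0.19. The gene past 2-fold was *Col6a1*, a chain of the microfibrillar collagen VI to which biglycan binds, at 144 FPKM in *shβ-catenin* and 301 FPKM in shControl cells (log2 fold change −1.07). *Col3a1*, of the thin fibrils of skin, was listed at 542 FPKM in *shβ-catenin* and 1067 FPKM in shControl cells (−0.98). *Col1a1*, of the main dermal collagen, was listed at 856 FPKM in *shβ-catenin* and 1258 FPKM in shControl cells (−0.56). Per FPKM of *Col1a1* there were 0.445 FPKM of *Bgn* in *shβ-catenin* and 0.562 FPKM in shControl cells, so *Bgn* was lower by more than *Col1a1* and by less than *Col3a1* or *Col6a1*.

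**Figure D4:**
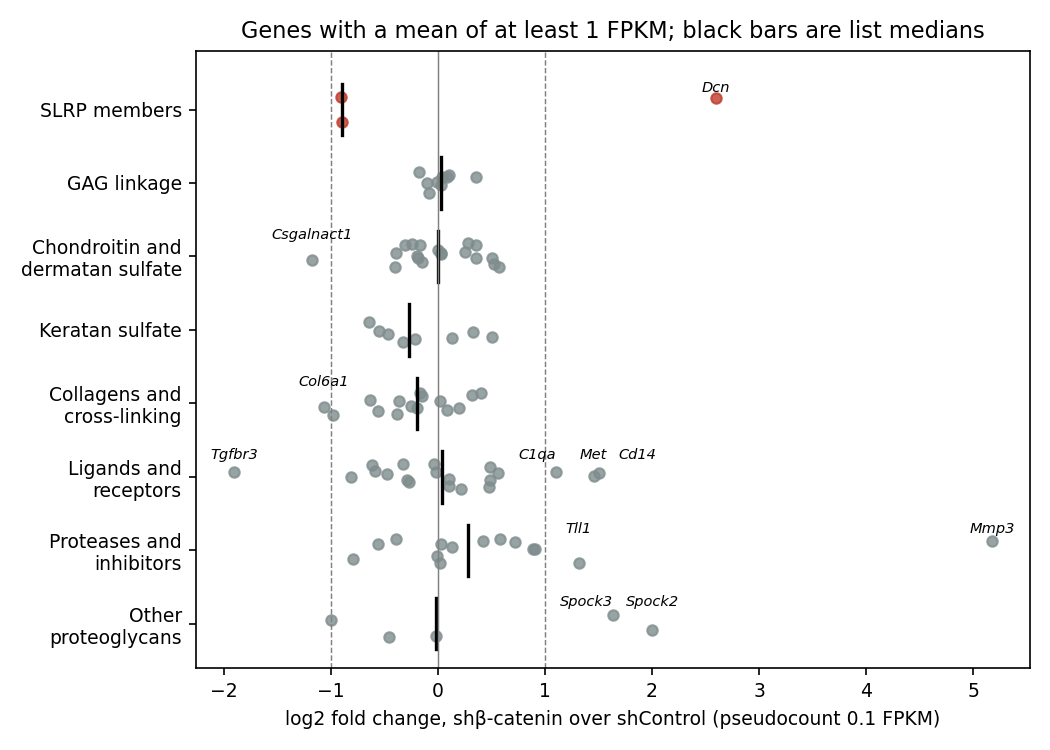
Log2 fold change of *shβ-catenin* over shControl (pseudocount 0.1 FPKM) for the genes of each list that averaged 1 FPKM or more, 1 point per gene, with black bars at the medians and dashed lines at 2-fold. The SLRP points are *Podn* and *Bgn* near −0.90 and *Dcn* at 2.60, while the medians of the other lists lie between −0.27 and 0.28.

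Ligands and receptors of SLRPs went both ways, 10 higher and 10 lower of the 20 that passed (23 measured), with a median of 0.04. Past 2-fold, 3 were higher and 1 lower, where 3.27% and 2.05% of all genes tested were. *Met*, a receptor of hepatocyte growth factor to which decorin binds, was listed at 36.0 FPKM in *shβ-catenin* and 13.1 FPKM in shControl cells. *Cd14*, a co-receptor of biglycan with Toll-like receptors, was listed at 49.9 FPKM in *shβ-catenin* and 17.4 FPKM in shControl cells. *C1qa*, a chain of complement C1q, to which decorin and biglycan bind, was listed at 11.7 FPKM in *shβ-catenin* and 5.40 FPKM in shControl cells. The lower gene was *Tgfbr3* (betaglycan, a proteoglycan that presents transforming growth factor β), at 1.45 FPKM in *shβ-catenin* and 5.67 FPKM in shControl cells (log2 fold change −1.90).

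The ligand *Tgfb1* was listed at 194 FPKM in *shβ-catenin* and 138 FPKM in shControl cells, and *Flna*, which encodes the actin cross-linker filamin A, at 233 FPKM in *shβ-catenin* and 358 FPKM in shControl cells. *Tlr4*, a biglycan receptor, was nearly even at 1.71 FPKM in *shβ-catenin* and 1.76 FPKM in shControl cells. *Tlr2*, another one, was listed at 0.911 FPKM in *shβ-catenin* and 1.67 FPKM in shControl cells. The receptors of biglycan signaling thus did not share the direction of *Cd14*.

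The list of proteases that cleave or process SLRPs also holds an enhancer and 3 inhibitors. Of 18 genes measured, 14 passed, 10 higher and 4 lower, with a median of 0.28. The lower genes were the membrane-bound protease *Mmp14* and the 3 inhibitors. *Timp2* was listed at 89.6 FPKM in *shβ-catenin* and 132 FPKM in shControl cells (log2 fold change −0.55), and *Timp3* at 84.5 FPKM in *shβ-catenin* and 111 FPKM in shControl cells (−0.39). *Timp1* was nearly even at 275 FPKM in *shβ-catenin* and 277 FPKM in shControl cells, and its sign turned with either scaling of the libraries. *Mmp14* was listed at 62.8 FPKM in *shβ-catenin* and 108 FPKM in shControl cells. Of the higher genes, 2 were past 2-fold, where 3.27% of all genes tested were. Both passed the filter only through the *shβ-catenin* library, so both had to be higher to be counted. These were *Mmp3* (stromelysin), at 30.0 FPKM in *shβ-catenin* and 0.734 FPKM in shControl cells, and *Tll1*, a relative of the procollagen C-proteinase that trims the propeptide of biglycan, at 2.42 FPKM in *shβ-catenin* and 0.910 FPKM in shControl cells. *Bmp1*, that proteinase itself, was listed at 57.6 FPKM in *shβ-catenin* and 42.9 FPKM in shControl cells. *Mmp2*, a gelatinase, was the most abundant of the list at 2652 FPKM in *shβ-catenin* and 1603 FPKM in shControl cells, and *Pcolce*, an enhancer of procollagen cleavage, was at 1046 FPKM in *shβ-catenin* and 953 FPKM in shControl cells. *Mmp3* also stands in the study's table of higher genes.

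Of 13 other proteoglycan genes, 5 passed, 2 higher and 3 lower. The higher genes were *Spock2* (testican-2), at 21.9 FPKM in *shβ-catenin* and 5.39 FPKM in shControl cells, and *Spock3*, at 2.67 FPKM in *shβ-catenin* and 0.792 FPKM in shControl cells. Both were past 2-fold, where 3.27% of all genes tested were. *Spock3* passed the filter only through the *shβ-catenin* library, so it had to be higher to be counted. *Spock2* is another gene of the study's table. *Vcan*, the large hyaluronan-binding versican, was listed at 103 FPKM in *shβ-catenin* and 206 FPKM in shControl cells, a log2 fold change of −0.998 that lies just inside 2-fold and close to those of *Bgn* and *Podn*. *Hspg2*, the basement membrane proteoglycan perlecan, was even at 147 FPKM in *shβ-catenin* and 148 FPKM in shControl cells.

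The cells carried the markers of fibroblasts. All 11 fibroblast markers measured were above 0. The filter left 10 of them, of which 2 were higher and 8 lower, and their median was −0.59. The marker under the filter was *Thy1*, at 1.39 FPKM in *shβ-catenin* and 0.303 FPKM in shControl cells, a 4.61-fold higher value. *Thy1* also stands in the study's table of higher genes. *Vim* (vimentin) was listed at 2804 FPKM in *shβ-catenin* and 3363 FPKM in shControl cells, and *S100a4*, a calcium-binding protein, at 1973 FPKM in *shβ-catenin* and 3136 FPKM in shControl cells. *Fap*, a fibroblast protease and the gene past 2-fold among the 10 that passed, was at 7.93 FPKM in *shβ-catenin* and 3.69 FPKM in shControl cells. Markers of other cell types rich in SLRPs were at low levels for tenocytes and osteoblasts, while some chondrocyte markers were well expressed. All 5 tenocyte markers were under 1 FPKM in both libraries, and of 8 osteoblast markers 2 passed, both lower. *Runx2*, a transcription factor of bone formation, was listed at 1.15 FPKM in *shβ-catenin* and 1.84 FPKM in shControl cells. Of 8 chondrocyte markers 3 passed, all higher, and the list summed to 293 FPKM in *shβ-catenin* and 248 FPKM in shControl cells, nearly all of it *Hapln1*, a hyaluronan link protein. *Comp*, a matrix protein of cartilage and tendon, was the chondrocyte marker past 2-fold, at 1.63 FPKM in *shβ-catenin* and 0.451 FPKM in shControl cells. It passed the filter only through the *shβ-catenin* library, so it had to be higher to be counted. *Sox9*, the main transcription factor of chondrocytes, was at 12.5 FPKM in *shβ-catenin* and 9.79 FPKM in shControl cells. The cartilage matrix genes *Col9a1* and *Matn1* were at 0 in both, and *Col2a1* and *Acan* were under 0.1 FPKM in both.

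Markers of leukocytes moved with *Dcn* and *Lum*. Of 10 measured, 3 passed (*Lyz*, *Cd14* and *Cd68*), all 3 more than 2-fold higher, and the list summed to 210 FPKM in *shβ-catenin* and 72.9 FPKM in shControl cells, with *Ptprc* and *Cd3e*, which define leukocytes and T cells, at 0 in both. The highest was *Lyz* (lysozyme), at 127 FPKM in *shβ-catenin* and 41.5 FPKM in shControl cells. Of 8 endothelial markers only *Pecam1* passed, at 2.08 FPKM in *shβ-catenin* and 0.275 FPKM in shControl cells. It passed only through the *shβ-catenin* library, so it had to be higher to be counted. The endothelial list summed to 2.47 FPKM in *shβ-catenin* and 0.342 FPKM in shControl cells, with *Tek*, *Tie1* and *Emcn* at 0. Some mural cell markers were lower, as were *Bgn* and *Podn*. Of 7 measured, 2 passed (*Notch3* and *Mcam*), both lower, and the list summed to 4.67 FPKM in *shβ-catenin* and 9.82 FPKM in shControl cells, with *Des* at 0. *Notch3*, a receptor of mural cells, was past 2-fold at 2.41 FPKM in *shβ-catenin* and 6.45 FPKM in shControl cells. Under the filter *Kcnj8* was higher, at 0.164 FPKM in *shβ-catenin* and 0.136 FPKM in shControl cells, while *Rgs5*, *Cspg4* and *Abcc9* were lower. Of 7 keratinocyte markers only *Dsp* (desmoplakin) passed, at 14.7 FPKM in *shβ-catenin* and 17.6 FPKM in shControl cells, with *Krt5* and *Krt1* at 0. The part of other cell types in the values of *Dcn*, *Lum*, *Bgn* and *Podn* was not tested.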

How the data were processed

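The authors made stranded mRNA libraries from total RNA, sequenced both ends of each fragment, and aligned them to an NMR genome assembly with TopHat2 2.0.13, Bowtie2 2.2.3 and SAMtools 0.1.19. They deposited FPKM values calculated with Cufflinks 2.2.1, which were used as deposited. The gene annotation, the depth and any filter are not given in the sources used here. FPKM assigns fragments by length and by share between isoforms, so values of low genes with several isoforms need not be whole fragments.

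Differences are log2 of (FPKM + 0.1) ratios, with a filter of a mean of at least 1 FPKM for counts and medians. The threshold of 2-fold was used beside the 4-fold of the study's methods. Smallest whole fragments were sought for genes with a mean under 1 FPKM, up to a total of 60 and within 0.002%, with the relative depth set to the commonest ratio of the 5239 genes that were below 1 FPKM in each library. Such fragments were found for 64.2% of 5649 genes, against 0.655% with the depth factor shifted by 1.4%. RefSeq gene order matched all 10 members by symbol, and coordinates were not used.

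All members were named, with *Ctnnb1*, every other SLRP family gene, and from each further list the genes past 2-fold (at most 6) and up to 2 with the highest mean. *Xylt1*, *Dse*, *Tlr2*, *Tlr4*, *Bmp1*, *Mmp14*, the *Timp* genes, *Ywhaz*, *Col2a1*, *Acan*, *Thy1*, the markers named as listed at 0 and the flanking genes fall outside it, and their values were known when they were chosen. A gene that the rule would name is not reported here, though it counts in its list. The members and lists were chosen with earlier results of these data known. The alternatives were pseudocounts of 0.01 and 1 FPKM, median ratio and upper quartile scaling, means of 5 FPKM or more or no filter, and symbols with a single entry. A mean of at least 0.5 FPKM was added after the data were seen. The methods were tested on simulated data. Scripts ran in Python 3.11.15 (matplotlib 3.10.9, scipy 1.17.1, pandas 2.3.3, numpy 2.4.6).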

Additional observations from a re-analysis of the deposited data

How the results depend on the processing

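With 1 library per condition no library could be left out and no limit of replicate error can be given. No paired analysis was possible because each condition has 1 library. A pseudocount cannot turn the direction of a gene. The scalings shift log2 fold changes by only 0.01 (median ratio) and 0.04 (upper quartile). Both shifts are smaller in size than the −0.20 of *Fmod*, the smallest change of the 6 members above 0. That the directions of these members stayed the same was therefore fixed in advance and is no support for them. *Dcn* was 2.63 with upper quartile scaling but 1.38 with a pseudocount of 1 FPKM, and *Ogn* was 0.97 with a pseudocount of 0.01. The median of the members depends on the filter: it was 0.063 without a filter and 0.12 for means of 0.5 FPKM or more, against −0.89 as reported. Members more than 2-fold higher numbered 2, 0 and 2 without a filter, at a mean of at least 5 FPKM and at 0.5 FPKM.

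Among all genes, 428 were more than 2-fold higher and 269 lower, and 89 and 27 past 4-fold. With a pseudocount of 1 FPKM these numbered 236 and 145, and 32 and 9 past 4-fold. Without a filter they numbered 2013 and 1145, and 409 and 197 past 4-fold. At a mean of at least 5 FPKM they numbered 134 and 117, and 24 and 6 past 4-fold, and at 0.5 FPKM 672 and 367, and 153 and 46 past 4-fold. With a pseudocount of 1 FPKM, 0 chondroitin and dermatan sulfate genes were more than 2-fold lower and 1 protease gene was more than 2-fold higher. The median of the other proteoglycans was −0.01 as deposited and 0.02 with upper quartile scaling.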

Other observations

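The genes next to *Bgn* and *Podn* were read in the same annotation. *Scp2*, a sterol carrier protein gene adjacent to *Podn*, was listed at 40.4 FPKM in *shβ-catenin* and 68.5 FPKM in shControl cells, a log2 fold change of −0.76 beside −0.90 for *Podn*, while the next named gene, *Echdc2*, was even at 16.7 FPKM in *shβ-catenin* and 16.5 FPKM in shControl cells. *Slc1a7*, on the other side of *Podn*, was listed at 1.004 FPKM in *shβ-catenin* and 0.812 FPKM in shControl cells. Beside *Bgn*, *Trex2* was listed at 3.27 FPKM in *shβ-catenin* and 2.37 FPKM in shControl cells, and *Atp2b3*, a calcium pump gene, at 0.279 FPKM in *shβ-catenin* and 0.222 FPKM in shControl cells. Farther along, *Dusp9* was listed at 0 in both, and *Pnck* at 0 in *shβ-catenin* and 0.346 FPKM in shControl cells. These genes were chosen by position after the values of the members were known.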
